A study of Mus musculus with 16 samples.

Results

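The response to sulforaphane (SFN) without osmotic stress was read from RNA sequencing counts of mIMCD3 cells, epithelial cells of a line derived from the inner medulla of the mouse kidney, where the collecting duct ends. Wild-type (WT) cells treated for 5 h with 10 µM SFN were compared with WT cells treated for 5 h with its solvent DMSO, both under isosmotic conditions and with 2 libraries each, so that 4 of the 16 libraries of the series entered the comparison. All genes that passed edgeR's filter on low counts were described, 19509 of the 55367 gene symbols in the deposited files. The other 12 libraries came from WT cells that were moved to hyperosmotic medium (600 mOsm) for 1 h or 6 h after the same DMSO or SFN treatment, and from Nrf2-/- cells treated with SFN that were kept isosmotic or stressed for 1 h, with 2 libraries per condition. The Nrf2-/- line was made with CRISPR/Cas9 from lentiviral vectors and drug selection, and the methods do not say whether it is a single clone. Nrf2-/- cells with DMSO alone were not analysed here, so no SFN effect within that line could be computed. The study's methods call the 2 RNA libraries of a condition biological replicates, without saying what was repeated. P-values rest on the spread between libraries of a condition, shared across genes and over all conditions of the series. The Nrf2-/- conditions are included in it. The source labels name mIMCD3 cells, which is followed here, although the deposited extraction protocol speaks of primary TEC.

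SFN is an isothiocyanate from cruciferous vegetables that reacts with cysteines of Keap1, the adaptor that marks the transcription factor Nrf2 (gene Nfe2l2) for degradation. Stabilised Nrf2 pairs with small Maf proteins, binds the antioxidant response element (ARE) and drives genes for glutathione synthesis, thioredoxin reduction, quinone and aldehyde detoxification, heme breakdown and NADPH supply. Reactive electrophiles also engage HSF1, the activator of heat shock chaperones, and the integrated stress response, in which ATF4 acts at C/EBP-ATF response elements. Collecting duct cells carry Nrf2 target genes beside the osmolyte genes controlled by NFAT5, and growth factor and cytokine signals act in them through immediate-early genes, NF-kB, YAP and SRF.

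Total counts were 40319167 and 43991410 in the DMSO libraries and 34941937 and 50774875 in the SFN libraries, within the range of 34484296 to 50774875 over the 16 libraries. The biological coefficient of variation between libraries of a condition was 0.111 for isosmotic DMSO and 0.128 for isosmotic SFN, against 0.0395 to 0.0871 in the other WT conditions and the isosmotic Nrf2-/- condition and 0.348 in the stressed Nrf2-/- condition. A trend with exon length was present in these 4 libraries among protein-coding genes with a mean of at least 50 counts. From the quintile of the shortest of these genes to that of the longest, the median log2 fold change with SFN went from -0.16 to 0.13, the difference between the DMSO libraries (replicate 1 minus 2) from -0.14 to 0.15, and that between the SFN libraries (replicate 2 minus 1) from -0.11 to 0.13. At 6 h the SFN medians went from -0.06 to 0.05 in the same order, and at 1 h they were 0.00 to 0.01. Collecting duct and renal epithelial markers were present, with summed levels of 3718 and 4162 CPM (counts scaled by library size after TMM normalization) in DMSO and 2946 and 2685 CPM in SFN over 22 genes tested, but Aqp2, the vasopressin-regulated water channel of principal cells, was at 0 in these 4 libraries. The 16 markers of other kidney and immune cell types that were tested summed to 15.2 to 20.9 CPM, with 4 to 9 of them at 0 in a library.

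**Figure D1:**
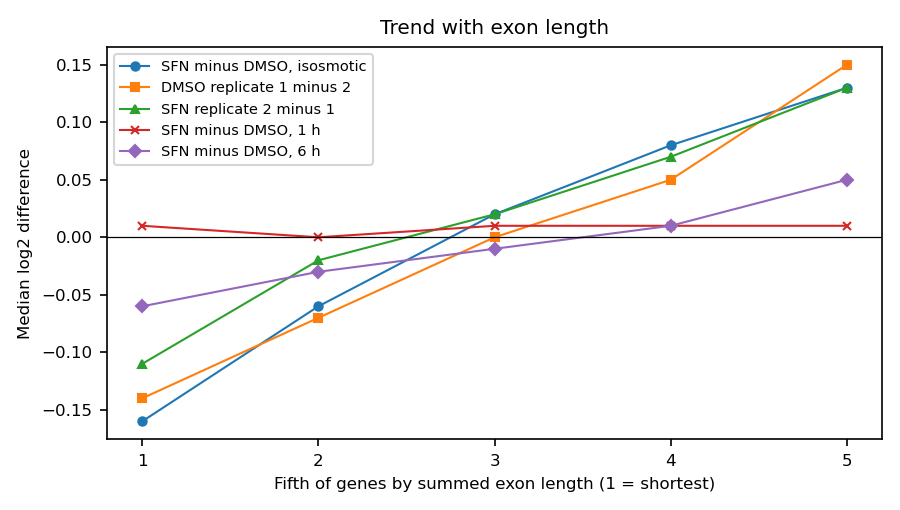
Median log2 difference (vertical axis) in each of 5 equal groups of protein-coding genes ordered by summed exon length (horizontal axis, 1 is the shortest). SFN minus DMSO under isosmotic conditions climbed from -0.16 to 0.13, the replicate differences within DMSO and within SFN climbed over a like range, SFN minus DMSO at 6 h of hyperosmotic stress climbed from -0.06 to 0.05, and at 1 h it lay between 0.00 and 0.01.

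SFN raised 212 genes and lowered 343 by edgeR's quasi-likelihood test, with p-values adjusted over all genes tested (Benjamini-Hochberg) and a threshold of 0.05, which is 1.09% and 1.76% of the genes tested. The median log2 fold change was 0.68 among the raised genes and -0.83 among the lowered genes, and it was -0.0035 over the 15308 genes with a mean of at least 10 counts. Of these 15308 genes, 49.6% had a log2 fold change above 0. At least a 2-fold change was found for 56 of the raised and 128 of the lowered genes. In each of the 555 called genes both libraries of 1 condition lay above both of the other, which also held for 48.3% of all genes tested. For a single gene, exact permutation of 2 and 2 libraries gives no p below 0.333, and the calls rest on the spread shared across genes and conditions. Without any single library, with the lone library of its condition assumed to vary like the other groups, the counts were lower: 114 raised and 188 lowered without DMSO replicate 1, 39 and 153 without DMSO replicate 2, 77 and 177 without SFN replicate 1, and 44 and 127 without SFN replicate 2. These 4 fits are called leave-one-out fits below. With the Nrf2-/- libraries left out of the shared spread, the 12 WT libraries gave 1570 raised and 1305 lowered genes of 18959 tested.

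The raised genes were led by antioxidant, cystine and chaperone genes, and the lowered genes by immediate-early, MAPK feedback and inflammatory genes. The gene lists held 47 of the 212 raised genes and 101 of the 343 lowered genes. Counts of called members come from the fit of all 16 libraries unless another fit is named. A list with no call in 1 direction can have calls there in another fit. The largest shares of raised members were in glutathione synthesis and cystine uptake (4 of 13) and heat shock chaperones (8 of 27). The largest shares of lowered members were in immediate-early genes (17 of 26) and MAPK feedback genes (11 of 21). A gene can belong to more than 1 list, as Atf3, Btg2, Sesn2, Sgk1, Slc6a9, Hspa4l and Cdh1 do.

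**Figure D2:**
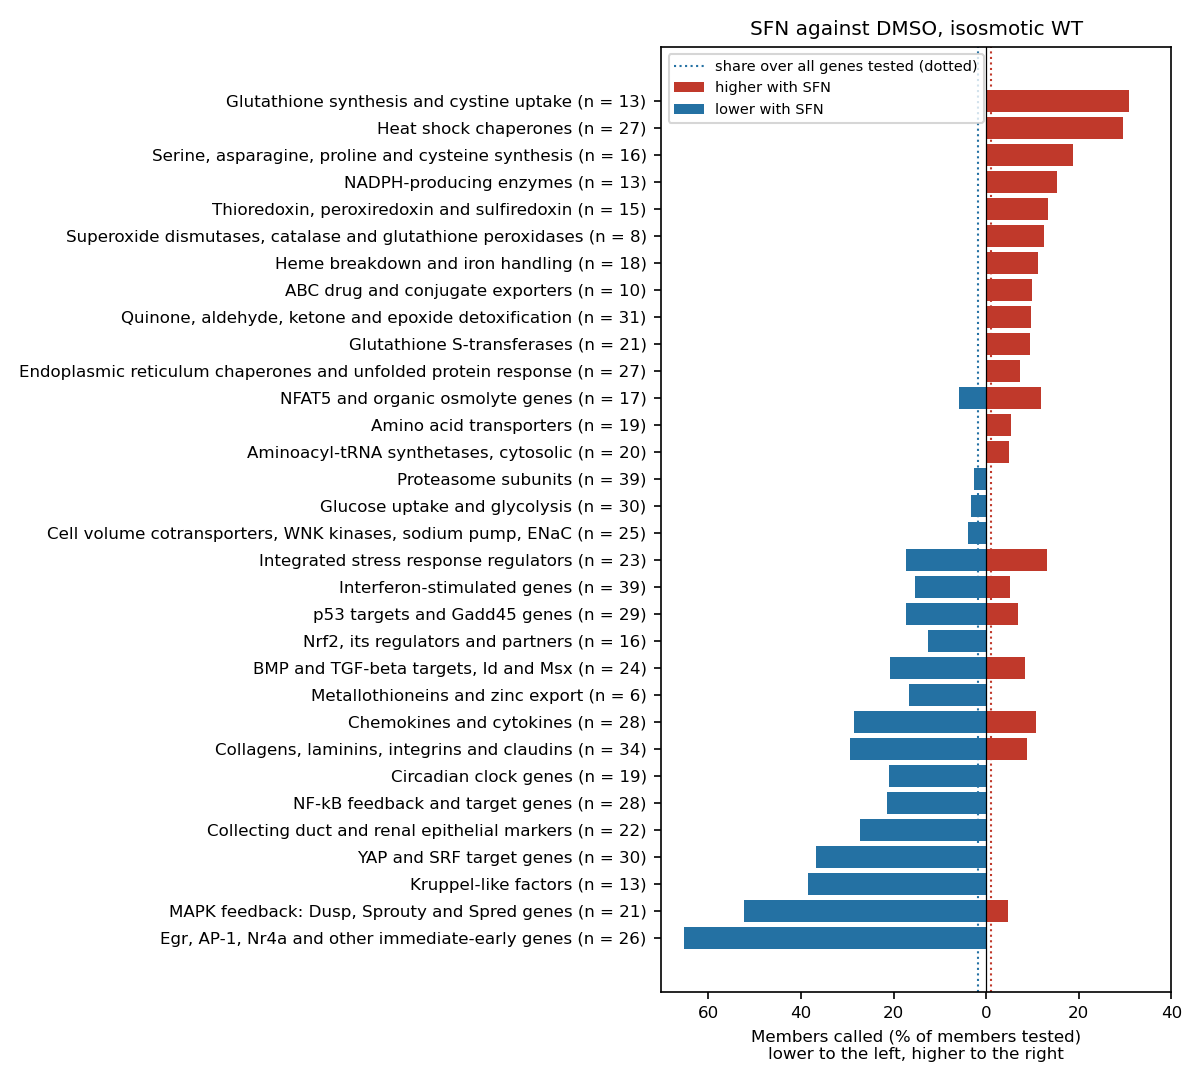
Share of the tested members of each gene list that were called higher (red, to the right) or lower (blue, to the left) with SFN, with the share over all genes tested as dotted lines. Lists with no called member are not drawn. Glutathione and heat shock lists extend farthest to the right and immediate-early genes farthest to the left.

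Cystine uptake and glutathione synthesis held the largest share of raised members: 4 of the 13 members tested were higher with SFN, none was lower, and the list's median log2 fold change was 0.29. Slc7a11, the cystine-glutamate antiporter subunit that supplies cysteine for glutathione, had 8.67 and 6.37 CPM in the DMSO libraries and 37.3 and 41.5 CPM in the SFN libraries. It rose 5.25-fold (log2 fold change 2.39 ± 0.264 SE, n = 2 libraries per condition, edgeR adjusted p = 0.00012). The gene spans 49892526 to 50443614 on the minus strand of chromosome 3 (GRCm38), and it had the largest log2 fold change among the raised genes named by rule. Gclc, the catalytic subunit of glutamate-cysteine ligase, was at 78.4 and 73.9 CPM in DMSO and 169 and 191 CPM in SFN (log2 fold change 1.24 ± 0.0964, edgeR adjusted p = 5.96e-06). Gclm, the modifier subunit of the same enzyme, was at 173 and 179.7 CPM in DMSO and 387 and 435 CPM in SFN (1.22 ± 0.0942, edgeR adjusted p = 5.96e-06). Both subunits thus changed by close to the same factor, 2.37-fold and 2.33-fold. Slc1a4, a neutral amino acid transporter, was at 26.2 and 26.2 CPM in DMSO and 45.3 and 48.3 CPM in SFN (0.84, edgeR adjusted p = 0.000528). All 4 genes were called in every leave-one-out fit. Gclm overlaps Gm17494 on the opposite strand, and since the strand setting of the counting is not given in the sources used here, reads of such pairs cannot be told apart.

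Thioredoxin and peroxide genes moved in fewer members. Srxn1, sulfiredoxin, which repairs overoxidised peroxiredoxins, was at 81.6 and 82.6 CPM in DMSO and 212 and 199.8 CPM in SFN, a 2.51-fold rise (log2 fold change 1.33 ± 0.0877, edgeR adjusted p = 1.26e-06). Txnrd1, the cytosolic thioredoxin reductase, was at 792 and 778 CPM in DMSO and 1218 and 1233 CPM in SFN (0.64, edgeR adjusted p = 0.00614). These were the 2 raised members of 15 tested, 11 of the 15 had a log2 fold change below 0, and the list's median was -0.18. With only the 12 WT libraries in the fit, 2 members were higher and 3 lower. That fit called 1570 of all 18959 genes tested higher and 1305 lower. Txnrd1 was not called without DMSO replicate 2 (edgeR adjusted p = 0.085) or without SFN replicate 2 (0.0659), and Srxn1 was called in each leave-one-out fit. Of 8 superoxide dismutase, catalase and glutathione peroxidase genes tested, 1 rose: Cat, catalase, went from 55.4 and 51.6 CPM to 84.1 and 92.1 CPM (0.72, edgeR adjusted p = 0.000638).

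The promoter of Srxn1 is shown because this gene had the smallest adjusted p among the raised genes named here and holds the 9-letter ARE core that overlaps an AP-1 motif (TGANTCAGC, searched on both strands). The line gives the 250 bases before the start site in GRCm38.p6 (RefSeq, chr2:152105274-152105523, plus strand), with the motif in capitals, 45 bases before the start:
Srxn1: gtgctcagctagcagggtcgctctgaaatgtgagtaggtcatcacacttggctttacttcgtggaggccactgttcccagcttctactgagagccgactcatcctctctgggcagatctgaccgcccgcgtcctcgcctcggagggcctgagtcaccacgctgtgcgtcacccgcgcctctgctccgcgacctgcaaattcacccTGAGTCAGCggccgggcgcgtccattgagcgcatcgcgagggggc
TGANTCAGC contains the AP-1 letters TGANTCA. It was found in 1.41% of the 12489 tested genes with a window in the table (250 bases before to 50 after a start), in 1.8% of the windows of raised genes and in 4.02% of those of lowered genes. The shorter ARE core, TGACNNNGC or TGAGNNNGC, was found in 35.1% of all tested genes, 34.7% of raised and 38.6% of lowered genes. A match is a description of the letters, not of a bound site.

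Detoxification enzymes rose in single members. Nqo1, a quinone reductase, was at 2.55 and 2.85 CPM in DMSO and 7.19 and 7.38 CPM in SFN (log2 fold change 1.43 ± 0.274, edgeR adjusted p = 0.0113). Its groups did not overlap, but it was called in none of the 4 leave-one-out fits, where its adjusted p was 0.0625 to 0.1. Adh7, an alcohol and retinol dehydrogenase, was at 51.1 and 50.1 CPM in DMSO and 95.1 and 106 CPM in SFN (0.99, edgeR adjusted p = 2.53e-05), and it overlaps 0610031O16Rik on the opposite strand. Esd, an esterase that releases glutathione from S-formylglutathione, went from 262 and 300.3 CPM to 430.2 and 429 CPM (0.61, edgeR adjusted p = 0.005) and lost its call without DMSO replicate 1 or SFN replicate 2. These were the 3 raised of 31 quinone, aldehyde, ketone and epoxide enzymes tested, none was lower, and the median was -0.05. With only the 12 WT libraries in the fit, 7 of these enzymes were higher and 4 lower. Among 21 glutathione S-transferases, which conjugate glutathione to electrophiles, 2 rose and none fell, with a median of 0.07. In the fit of the 12 WT libraries, 3 transferases were higher and 3 lower. That fit called 1570 of all 18959 genes tested higher and 1305 lower. Gsta1 went from 12.3 and 12.1 CPM to 24.0 and 27.5 CPM (1.08, edgeR adjusted p = 0.000638), and Gsta4 from 36.3 and 42.2 CPM to 77.4 and 64.2 CPM (0.85, edgeR adjusted p = 0.00539). Gsta4 was not called without DMSO replicate 1 or SFN replicate 1, and Gsta1 is nearly identical to its paralog Gsta2, between which reads may be split.

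Heme breakdown held the gene ranked 2 by fold change among the raised genes named by rule. Hmox1, heme oxygenase 1, which opens the heme ring to biliverdin, carbon monoxide and iron, had 71.3 and 84.2 CPM in DMSO and 327 and 308 CPM in SFN. It rose 4.09-fold (log2 fold change 2.03 ± 0.243, edgeR adjusted p = 0.000311) and was called in each leave-one-out fit. The gene lies on the plus strand of chromosome 8 from 75093621 to 75100589 (GRCm38). Slc48a1, a heme transporter, was at 122 and 124 CPM in DMSO and 266 and 244 CPM in SFN (1.06, edgeR adjusted p = 1.26e-05), and it overlaps Hdac7 on the opposite strand. These were the 2 raised of 18 heme and iron genes tested, with none lower, 13 of 18 above 0 and a median of 0.29. With only the 12 WT libraries in the fit, 7 were higher and 2 lower. That fit called 1570 of all 18959 genes tested higher and 1305 lower.

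NADPH-producing enzymes rose in 2 of 13 members, Pgd and G6pdx, with a median of 0.05. Pgd, 6-phosphogluconate dehydrogenase, went from 246 and 263 CPM to 411 and 383 CPM (0.64, edgeR adjusted p = 0.00686). G6pdx, which catalyses the first step of the pentose phosphate pathway, went from 109.8 and 112 CPM to 155 and 156 CPM (0.49, edgeR adjusted p = 0.00395) and overlaps Ikbkg on the opposite strand. Neither was called in all leave-one-out fits: without DMSO replicate 2 the count of raised members was 0, and it was 1 without each of the other libraries. Of 10 ABC exporters of drugs and conjugates, Abcc4 rose, from 190.4 and 155 CPM to 239 and 253 CPM (0.51, edgeR adjusted p = 0.0494), and it was called only without DMSO replicate 1 among these fits. The list's median was 0.41, the highest of the lists of antioxidant function.

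The RNAs of the Nrf2 system itself gave few calls. Nfe2l2, which encodes Nrf2, was at 77.9 and 74.7 CPM in DMSO and 66.9 and 78.0 CPM in SFN, with overlapping groups (log2 fold change -0.07, edgeR adjusted p = 0.761). Keap1 was at 45.5 and 51 CPM in DMSO and 64.3 and 60.5 CPM in SFN (0.37, edgeR adjusted p = 0.0635). Among the 16 regulators and partners of Nrf2 tested, none was higher and 2 were lower, and the median was -0.10. The lowered members were Mafk, a small Maf partner (-0.45, edgeR adjusted p = 0.0494), and Trim16, an E3 ligase (-0.49, edgeR adjusted p = 0.0149), and neither was called in any leave-one-out fit. Sqstm1, the autophagy receptor that binds Keap1, had a log2 fold change of 0.42 (edgeR adjusted p = 0.0924).

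**Figure D3:**
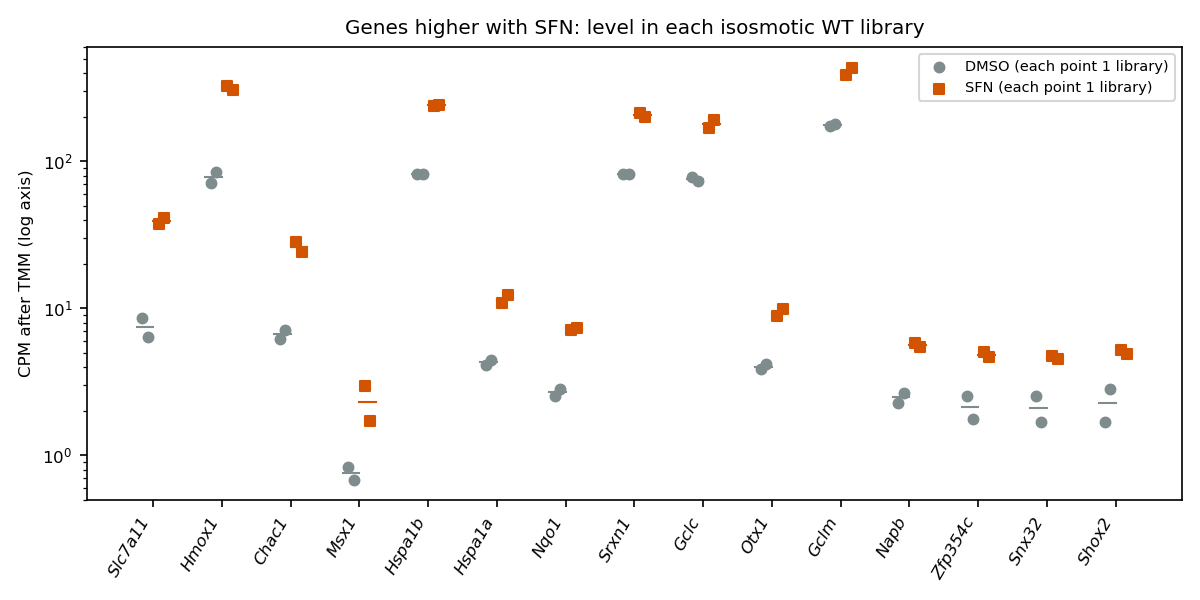
Level in CPM (log axis) of the 15 raised genes named by rule, in each DMSO library (grey circles) and each SFN library (orange squares) under isosmotic conditions, with the condition mean as a short line. Both SFN points lie above both DMSO points for each gene, from Slc7a11 at 8.67 and 6.37 against 37.3 and 41.5 CPM to Shox2 at 1.69 and 2.85 against 5.18 and 4.91 CPM.

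Heat shock chaperones formed the raised list with the most members, 8 of 27 tested, none lower, with a median of 0.15. With only the 12 WT libraries in the fit, 14 were higher and 1 lower. That fit called 1570 of all 18959 genes tested higher and 1305 lower. Hspa1b, an inducible HSP70, had 81.9 and 81.7 CPM in DMSO and 239 and 243 CPM in SFN, a 2.94-fold rise (log2 fold change 1.56 ± 0.143, edgeR adjusted p = 1.85e-05). Its near-identical neighbour Hspa1a was at 4.1 and 4.49 CPM in DMSO and 10.8 and 12.3 CPM in SFN (1.43, edgeR adjusted p = 0.000266). Reads may be split between these 2 copies, and Hspa1a overlaps Gm20481 on the opposite strand. Hsph1, a nucleotide exchange factor of HSP70, went from 365 and 356 CPM to 591 and 630.1 CPM (0.76, edgeR adjusted p = 0.000119). Dnajb1, an HSP40 that hands clients to HSP70, went from 93.4 and 104 CPM to 164 and 149 CPM (0.67, edgeR adjusted p = 0.00179). Hspb8 (0.96), Hspa4l (0.65), Bag3 (0.61) and Chordc1 (0.46), which encode a small heat shock protein, an HSP110 protein and 2 cochaperones, also rose. Hspa8, the constitutive HSP70, was at 2861 and 3159 CPM in DMSO and 3644 and 4171 CPM in SFN (0.38, edgeR adjusted p = 0.0554), and Hsp90aa1 had a log2 fold change of 0.42 (edgeR adjusted p = 0.235). Hspa1b, Hspa1a, Hsph1 and Dnajb1 were called in every leave-one-out fit, and the count of raised members was 4 without DMSO replicate 1, 6 without DMSO replicate 2, 7 without SFN replicate 1 and 5 without SFN replicate 2.

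Regulators of the integrated stress response, the translation-linked pathway of amino acid shortage and unfolded proteins, moved both ways: 3 of 23 rose and 4 fell. Chac1, which degrades glutathione and is a target of ATF4, had 6.22 and 7.12 CPM in DMSO and 28.3 and 24.3 CPM in SFN. It rose 3.94-fold (log2 fold change 1.98 ± 0.20, edgeR adjusted p = 4.21e-05) and was called in each leave-one-out fit. Sesn2, a stress-induced leucine sensor upstream of mTORC1, went from 11.6 and 12.2 CPM to 24.8 and 25.7 CPM (1.08, edgeR adjusted p = 0.000232), and Trib3, a pseudokinase that inhibits ATF4, from 16.2 and 17.8 CPM to 28.9 and 28.4 CPM (0.76, edgeR adjusted p = 0.0148). Atf4 itself was at 296 and 348 CPM in DMSO and 437 and 414 CPM in SFN (0.40, edgeR adjusted p = 0.123), and Ddit3, which encodes CHOP, had a log2 fold change of 0.52 (edgeR adjusted p = 0.359). Asns, asparagine synthetase, another ATF4 target, had a log2 fold change of 0.18 (edgeR adjusted p = 0.547). The lowered members were Atf3, at 61.0 and 56.0 CPM in DMSO and 21.9 and 19.8 CPM in SFN (-1.49, edgeR adjusted p = 7.57e-05), Trib1 (-1.62), Stc2 (-1.02) and Gdf15 (-0.87). Trib3, Stc2 and Gdf15 were called in none of the leave-one-out fits, which left 2 raised and 2 lowered members in each.

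Around this pathway, 3 of 16 genes of serine, asparagine, proline and cysteine synthesis rose, namely Psph (0.56), Gpt2 (0.52) and Aldh18a1 (0.37), and none of the 3 was called in any leave-one-out fit. Slc6a9, the glycine transporter GLYT1, was the raised member among 19 amino acid transporters (0.81, edgeR adjusted p = 0.0178), and Iars, the isoleucyl-tRNA synthetase, among 20 cytosolic synthetases (0.40, edgeR adjusted p = 0.0332). Neither of them was called in a leave-one-out fit. Among 27 endoplasmic reticulum chaperone and unfolded protein response genes, Herpud1, which takes part in the removal of misfolded proteins, went from 23.3 and 22.2 CPM to 41.3 and 42.6 CPM (0.88, edgeR adjusted p = 0.00208). Ero1lb, an oxidase that forms disulfides, rose as well (0.69, edgeR adjusted p = 0.026), without a call when DMSO replicate 2, SFN replicate 1 or SFN replicate 2 was left out. Hspa5, the chaperone BiP, had a log2 fold change of -0.16 (edgeR adjusted p = 0.399).

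The promoters of Slc7a11 and Chac1 are shown because these genes, ranked 1 and 3 by fold change among the raised genes named by rule, both hold the C/EBP-ATF letters TGATGNAA in the 250 bases before the start (GRCm38.p6, RefSeq, both strands searched, matches in capitals). Slc7a11 (chr3:50443614-50443863, minus strand) holds a pair that faces each other, 66 and 47 bases before the start, and Chac1 (chr2:119350992-119351241, plus strand) holds a copy on the opposite strand at 193 bases:
Slc7a11: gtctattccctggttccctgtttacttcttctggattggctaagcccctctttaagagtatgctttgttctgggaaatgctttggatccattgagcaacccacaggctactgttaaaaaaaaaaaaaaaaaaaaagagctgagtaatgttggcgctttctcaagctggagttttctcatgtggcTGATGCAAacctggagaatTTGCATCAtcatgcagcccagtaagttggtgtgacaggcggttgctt
Chac1: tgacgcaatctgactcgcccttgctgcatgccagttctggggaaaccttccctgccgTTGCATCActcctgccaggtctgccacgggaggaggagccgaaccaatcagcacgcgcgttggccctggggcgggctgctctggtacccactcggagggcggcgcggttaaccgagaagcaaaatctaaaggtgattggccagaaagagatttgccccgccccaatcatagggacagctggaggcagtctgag
These letters were found in 2.9% of the tested genes with a window, in 5.99% of raised genes, in 4.42% of lowered genes, in 6 of the 20 integrated stress response genes with a window (30%) and in 38.5% of the tRNA synthetase genes. Whether these letters had a part in the changes of these genes was not tested.

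Immediate-early genes, which encode short-lived transcription factors and RNA regulators switched on within minutes by growth factor signals, formed the list with the largest share of lowered members. Of 26 tested, 17 were lower with SFN and none was higher, and the median log2 fold change was -0.82. Egr2, a zinc finger factor, had 2.88 and 1.95 CPM in DMSO and 0.402 and 0.426 CPM in SFN, a 5.77-fold fall (log2 fold change -2.53 ± 0.333, edgeR adjusted p = 0.000506). Its groups were far apart, and it was called in each leave-one-out fit. Egr2 spans 67535475 to 67542188 on the plus strand of chromosome 10 (GRCm38). Fosb, an AP-1 subunit, went from 12.8 and 10.2 CPM to 1.93 and 2.93 CPM (-2.22, edgeR adjusted p = 1.81e-05). Arc, an effector gene known from neurons, went from 64.7 and 59.4 CPM to 15 and 12.8 CPM (-2.16 ± 0.111, edgeR adjusted p = 2.11e-07). Junb, an AP-1 subunit of higher level, went from 517 and 534 CPM to 171 and 145 CPM (-1.73, edgeR adjusted p = 6.98e-06), and it overlaps Prdx2 on the opposite strand.

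The fall was not shared by every founding member of the class. Egr1 was at 262 and 244 CPM in DMSO and 172 and 196 CPM in SFN, without overlap but short of the threshold (-0.46, edgeR adjusted p = 0.24), and Jun had a log2 fold change of 0.17 (edgeR adjusted p = 0.496). Fos went from 15.8 and 18.2 CPM to 5.85 and 7.38 CPM (-1.36, edgeR adjusted p = 0.00345). Btg2, an antiproliferative cofactor of mRNA deadenylation, went from 123 and 124 CPM to 34.8 and 37.1 CPM (-1.78, edgeR adjusted p = 2.15e-05). Egr3 (-3.25), Nr4a1 (-1.12), Csrnp1 (-1.04), Ier2 (-0.90), Zfp36 (-0.83), Jund (-0.82), Myc (-0.72), Ier5 (-0.72), Srf (-0.50), Fosl2 (-0.47) and Atf3 were the other lowered members. Egr2, Fosb, Arc, Btg2, Junb, Atf3, Nr4a1, Csrnp1 and Ier5 were called in all leave-one-out fits. The count of lowered members was 14 without DMSO replicate 1, 11 without DMSO replicate 2, 12 without SFN replicate 1 and 10 without SFN replicate 2. After removal of the trend with length and GC content 17 members were called lower, without Ier2. That fit called 580 of all 19222 genes tested lower and 385 higher.

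Egr2 is also shown by its promoter, as a named immediate-early gene that holds letters of a serum response element. The letters, CCATAT followed by any 2 bases and GG (both strands searched; this copy is found on both), lie 72 bases before the start at chr10:67537619-67537868 (GRCm38.p6, RefSeq, plus strand), in the first listed of the 3 of 5 windows of Egr2 that hold them:
Egr2: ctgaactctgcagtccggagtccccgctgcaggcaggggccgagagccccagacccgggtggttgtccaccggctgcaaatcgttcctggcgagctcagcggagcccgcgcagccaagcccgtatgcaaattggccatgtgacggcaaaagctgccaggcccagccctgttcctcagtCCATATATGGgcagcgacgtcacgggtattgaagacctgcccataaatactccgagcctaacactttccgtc
They were found in 0.528% of all tested genes with a window, in 2.01% of lowered genes, in 0.599% of raised genes and in 2 of 20 immediate-early genes (10%). The AP-1 letters TGANTCA were found in 6.88% of all tested genes, in 14.5% of lowered genes and in 6.59% of raised genes.

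Feedback genes of the MAPK pathway, which encode phosphatases and adaptors that are made when ERK signals and then restrain it, fell with the immediate-early genes: 11 of 21 were lower, 1 was higher and the median was -0.51. Dusp2, a nuclear MAPK phosphatase, had 76.9 and 83.9 CPM in DMSO and 17.0 and 19.6 CPM in SFN (log2 fold change -2.13 ± 0.241, edgeR adjusted p = 0.000135). Dusp6, which acts on ERK in the cytoplasm, went from 151 and 153 CPM to 58.2 and 58.5 CPM (-1.38, edgeR adjusted p = 1.17e-05), and Dusp5, its nuclear counterpart, from 169 and 179.6 CPM to 67.7 and 72.8 CPM (-1.31, edgeR adjusted p = 8.51e-05). Errfi1, an inhibitor of the EGF receptor, went from 348 and 359 CPM to 133 and 148 CPM (-1.33, edgeR adjusted p = 6.15e-06). Dusp10 (-1.41), Spry4 (-1.25), Spry1 (-0.94), Phlda1 (-0.92), Spry2 (-0.88), Dusp1 (-0.51) and Dusp14 (-0.42) were lower too. The raised member, Etv5, an ETS factor downstream of FGF signalling, went from 9.03 and 8.47 CPM to 14.7 and 15.8 CPM (0.80, edgeR adjusted p = 0.00309), with no call without DMSO replicate 2 or SFN replicate 2. Lowered members numbered 8 to 10 in the leave-one-out fits, and Dusp5 overlaps AC137853.2 on the opposite strand.

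**Figure D4:**
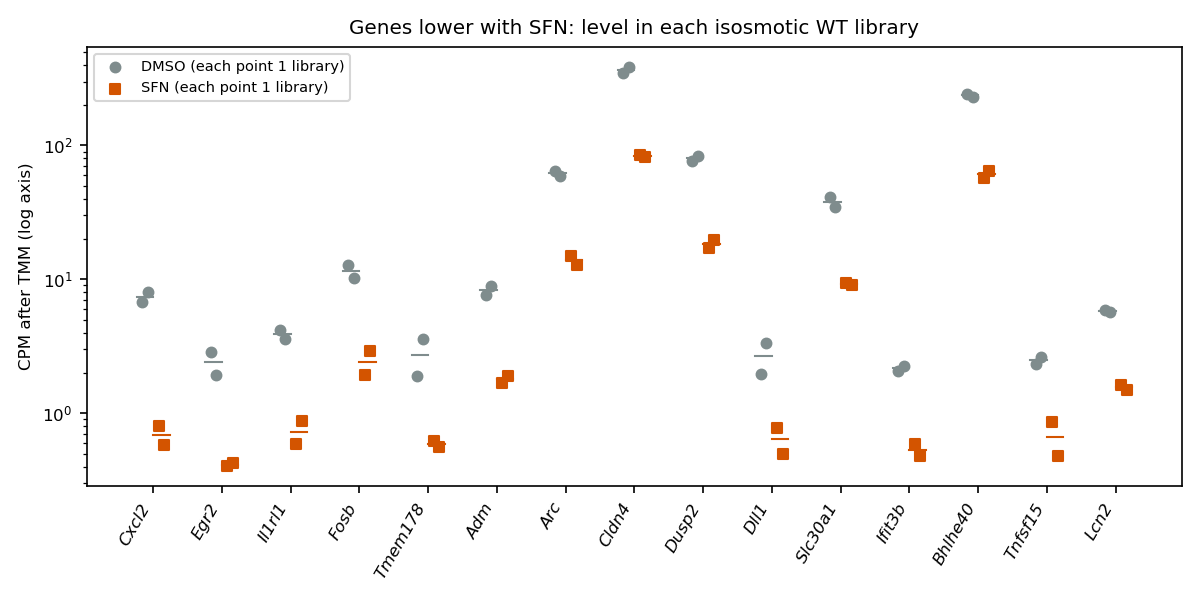
Level in CPM (log axis) of the 15 lowered genes named by rule, in each DMSO library (grey circles) and each SFN library (orange squares) under isosmotic conditions, with the condition mean as a short line. Both SFN points lie below both DMSO points for each gene, from Cxcl2 at 6.72 and 8.02 against 0.804 and 0.575 CPM to Lcn2 at 5.91 and 5.73 against 1.64 and 1.48 CPM.

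Chemokines and cytokines also fell in larger number than they rose, 8 against 3 of 28 tested, with a median of -0.81. Cxcl2, a chemokine that draws neutrophils, had 6.72 and 8.02 CPM in DMSO and 0.804 and 0.575 CPM in SFN. It fell 10.9-fold (log2 fold change -3.44 ± 0.473, edgeR adjusted p = 0.00183), the largest change among the genes named by rule. Cxcl2 lies on the plus strand of chromosome 5 from 90903871 to 90905938 (GRCm38), and without SFN replicate 2 its log2 fold change was -3.19 with an adjusted p of 0.0666. Cxcl1, its neighbour with the same receptor, went from 52.9 and 54.4 CPM to 16.1 and 13.2 CPM (-1.88, edgeR adjusted p = 0.0302), with no call in any leave-one-out fit. Ccl2, which draws monocytes, went from 66.6 and 59.0 CPM to 25.5 and 25.5 CPM (-1.30, edgeR adjusted p = 2.24e-05), and Lif, an interleukin 6 family cytokine, from 172 and 166 CPM to 52.6 and 49.1 CPM (-1.73, edgeR adjusted p = 6.15e-06). Ccl20 (-2.82), Cxcl5 (-1.27), Cxcl10 (-1.01) and Cxcl16 (-0.74) were the other lowered members. The raised members were Tnfsf9 (1.12), Il11 (1.03) and Ccl25 (0.57), none of which was called in a leave-one-out fit. Lif, Ccl2 and Cxcl5 were called in all of these fits, and lowered members numbered 6 without DMSO replicate 1, 5 without DMSO replicate 2, 6 without SFN replicate 1 and 3 without SFN replicate 2.

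Among NF-kB feedback and target genes, 6 of 28 fell and none rose, with a median of -0.26 and 25 of the 28 below 0. Nfkbia, the inhibitor IkB-alpha that NF-kB induces to end its own signal, went from 112 and 118 CPM to 49.4 and 44.1 CPM (-1.30, edgeR adjusted p = 5.6e-05). Tnfaip3, the deubiquitinase A20, went from 81.8 and 74.8 CPM to 30.1 and 31.3 CPM (-1.35, edgeR adjusted p = 3.66e-06). Ptgs2, cyclooxygenase 2, went from 343 and 306 CPM to 146 and 174 CPM (-1.02, edgeR adjusted p = 0.000211). Traf1 (-1.02), Tnfaip2 (-0.75) and Relb (-0.68) fell as well. Traf1 was called in no leave-one-out fit and Relb in those without DMSO replicate 2 or SFN replicate 1, which left 4 or 5 lowered members.

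The promoters of Cxcl1 and Cxcl2 are shown because these lowered neighbours both hold NF-kB letters in a pair close to the start (GGG, any 2 bases and TTTCC, both strands searched, in capitals). In Cxcl1 (chr5:90890995-90891244, plus strand, GRCm38.p6, RefSeq) they lie 89 and 71 bases before the start, and in Cxcl2 (chr5:90903649-90903898, plus strand) 97 and 78 bases:
Cxcl1: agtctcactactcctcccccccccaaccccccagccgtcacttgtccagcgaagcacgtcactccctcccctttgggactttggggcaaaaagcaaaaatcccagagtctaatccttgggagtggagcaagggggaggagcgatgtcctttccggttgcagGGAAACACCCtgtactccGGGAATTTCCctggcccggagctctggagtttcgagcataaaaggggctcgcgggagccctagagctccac
Cxcl2: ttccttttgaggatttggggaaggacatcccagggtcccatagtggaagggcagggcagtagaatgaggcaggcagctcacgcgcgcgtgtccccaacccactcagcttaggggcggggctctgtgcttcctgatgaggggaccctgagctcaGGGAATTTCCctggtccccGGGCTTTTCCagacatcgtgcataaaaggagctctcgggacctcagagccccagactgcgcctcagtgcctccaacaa
The letters were found in 2.01% of all tested genes with a window, in 4.02% of lowered genes, in 0.599% of raised genes, in 7 of 17 chemokine and cytokine genes (41.2%) and in 23.8% of the NF-kB list.

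Interferon-stimulated genes lay below 0 in 35 of 39 members tested, with a median of -0.59, and 6 were called lower and 2 higher. With only the 12 WT libraries in the fit, 20 were lower and 2 higher. Of all 18959 genes tested in that fit, 1305 were lower and 1570 higher. Ifit3, an antiviral adaptor, had 8.05 and 9.68 CPM in DMSO and 2.44 and 2.78 CPM in SFN (log2 fold change -1.76, edgeR adjusted p = 0.0013), and it was the member called in all leave-one-out fits. Its near-identical copy Ifit3b was at 2.07 and 2.25 CPM in DMSO and 0.59 and 0.482 CPM in SFN (-2.02, edgeR adjusted p = 0.00912), and reads may be split between the pair. Rtp4 (-2.66), Rsad2 (-2.43), Oas3 (-2.17) and Usp18 (-1.87) were the other lowered members, each below 3 CPM in DMSO, and Usp18 overlaps Gm44148 on the opposite strand. Gbp3, a guanylate-binding protein (0.81, edgeR adjusted p = 0.0197), and Stat2, a transducer of the interferon signal (0.58, edgeR adjusted p = 0.0203), rose, with no call in any leave-one-out fit. The other lowered members each lost their call in at least 1 leave-one-out fit. With the trend with length and GC content removed, 10 members were called lower. That fit called 580 of all 19222 genes tested lower and 385 higher.

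Ifit3 is shown because its promoter holds a pair of interferon response letters (GAAA, any 2 bases and GAAA, both strands searched) at 156 and 122 bases before the start, both on the opposite strand (chr19:34583279-34583528, plus strand, GRCm38.p6, RefSeq):
Ifit3: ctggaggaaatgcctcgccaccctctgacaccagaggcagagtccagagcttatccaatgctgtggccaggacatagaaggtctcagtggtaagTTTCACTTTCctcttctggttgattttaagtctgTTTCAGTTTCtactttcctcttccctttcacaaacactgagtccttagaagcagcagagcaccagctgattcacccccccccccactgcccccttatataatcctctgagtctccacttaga
These letters were found in 3.53% of all tested genes with a window, in 7.23% of lowered genes, in 1.8% of raised genes and in 18 of 30 interferon-stimulated genes (60%).

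Targets of YAP and SRF, factors that read cell shape and actin tension, fell in 11 of 30 members tested, with none higher and a median of -0.41. Ccn2, a matricellular growth factor, had 785 and 855 CPM in DMSO and 259.9 and 323 CPM in SFN (log2 fold change -1.49, edgeR adjusted p = 1.05e-05), and it overlaps Gm15270 on the opposite strand. F3, tissue factor, the trigger of blood coagulation, went from 466 and 459.9 CPM to 157 and 157 CPM (-1.56, edgeR adjusted p = 1.26e-06). Thbs1, thrombospondin 1, went from 1199 and 999 CPM to 513 and 548 CPM (-1.05, edgeR adjusted p = 3.2e-05). Edn1 (-1.76), which encodes the vasoactive peptide endothelin 1, Fst (-1.16), Fhl2 (-1.02), Acta2 (-0.96), Ankrd1 (-0.72), Ccn1 (-0.72), Zyx (-0.47) and Cnn2 (-0.47) were lower as well. Edn1, F3, Ccn2, Fst and Thbs1 were called in all leave-one-out fits, and lowered members numbered 9 without DMSO replicate 1, 5 without DMSO replicate 2, 6 without SFN replicate 1 and 6 without SFN replicate 2.

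Kruppel-like factors, zinc finger regulators of epithelial growth and differentiation, fell in 5 of 13 members, none rose, and the median was -0.41. Klf10, first described as induced by TGF-beta, went from 156 and 152 CPM to 51.7 and 56.7 CPM (-1.51, edgeR adjusted p = 1.26e-06), and Klf6 from 314 and 284 CPM to 149.9 and 154 CPM (-0.98, edgeR adjusted p = 0.00369). Klf11 (-1.38), Klf7 (-1.36) and Klf4 (-1.17) were the others, and these 5 were called in every leave-one-out fit. In the BMP and TGF-beta list, 5 of 24 fell and 2 rose, with a median of -0.23. Hes1, a repressor downstream of Notch and BMP signals, went from 90.9 and 114 CPM to 28.8 and 29.6 CPM (-1.81, edgeR adjusted p = 3.59e-05), and Smad7, an inhibitor of TGF-beta receptors, from 135 and 124 CPM to 62.0 and 57.1 CPM (-1.12, edgeR adjusted p = 0.00105). Tgif1 (-0.78), Id1 (-0.70) and Id2 (-0.62) were also lower. Msx1, a homeobox factor, was at 0.834 and 0.685 CPM in DMSO and 2.95 and 1.7 CPM in SFN (1.60, edgeR adjusted p = 0.0281) and was called in the fit without SFN replicate 2 alone among the leave-one-out fits. Ltbp1, which anchors latent TGF-beta in the matrix, was the second raised member (0.52, edgeR adjusted p = 0.0233), with a call only without DMSO replicate 1. Lowered members numbered 3 without DMSO replicate 2 and 4 or 5 without the others.

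Of 19 circadian clock genes, 4 fell and none rose, with a median of -0.10. Bhlhe40, a repressor in the circadian clock, had 243 and 229 CPM in DMSO and 57.5 and 64.9 CPM in SFN (log2 fold change -1.95 ± 0.154, edgeR adjusted p = 6.15e-06), and it overlaps 0610040F04Rik on the opposite strand. The smaller falls of Nr1d1 (-0.91), Nfil3 (-0.65) and Cry2 (-0.53) were not called in all fits: without DMSO replicate 1 there were 2 lowered members, and without each of the other libraries 1. Among 29 p53 targets and Gadd45 genes, 5 fell and 2 rose, with a median of -0.08. Plk2, a kinase of the stress-induced Polo family, went from 1062 and 1016 CPM to 556 and 562 CPM (-0.89, edgeR adjusted p = 5.14e-05), and Cdkn1a, which encodes the cell cycle inhibitor p21, from 80.4 and 93.9 CPM to 50.8 and 45.6 CPM (-0.85, edgeR adjusted p = 0.000321). Bbc3 (-1.27) and Pmaip1 (-0.72), which encode the cell death activators PUMA and NOXA, were lower, as was Btg2. Sesn2 and Polk, a translesion DNA polymerase (0.59, edgeR adjusted p = 0.0491), were higher, and Polk was called in no leave-one-out fit.

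Junction, matrix and keratin genes changed in both directions but mostly fell. Among 34 collagens, laminins, integrins and claudins, 10 were lower and 3 higher, with a median of -0.16. Cldn4, a tight junction claudin of the collecting duct, had 345 and 385 CPM in DMSO and 84.5 and 81.7 CPM in SFN, a 4.39-fold fall (log2 fold change -2.13 ± 0.133, edgeR adjusted p = 1.26e-06). Among the others, Itgb6 (-1.35), Cldn1 (-1.34), Itga2 (-0.87), Cldn7 (-0.73), Lamb3 (-0.69), Cdh1 (-0.66), Lama3 (-0.56) and Itgb5 (-0.42) were lower too. Lamb3 and Lama3 encode laminin chains of the epithelial basement membrane. The raised members were Col4a2, from 115 and 104 CPM to 177 and 151 CPM (0.58, edgeR adjusted p = 0.0108), its head-to-head neighbour Col4a1 (0.52), with which it overlaps on the opposite strand, and Itga5, a fibronectin receptor subunit (0.40, edgeR adjusted p = 0.022). Without DMSO replicate 1 there were 6 lowered and 2 raised members, without DMSO replicate 2 there were 7 and 0, without SFN replicate 1 there were 6 and 0, and without SFN replicate 2 there were 6 and 1.

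Of the 22 duct and renal epithelial markers, 6 fell and none rose, with a median of -0.24. These were Krt7, from 332 and 380.0 CPM to 203 and 158 CPM (-0.98, edgeR adjusted p = 0.00154), Krt19 (-0.72), Cdh1, Krt18 (-0.56), the epithelial transcription factor Grhl2 (-0.50) and Krt8 (-0.42). Epcam was at 80.8 and 89.8 CPM in DMSO and 50.3 and 47.3 CPM in SFN (-0.81, edgeR adjusted p = 0.0566), and Pax2 at 119 and 119.7 CPM and at 139 and 146 CPM (0.26, edgeR adjusted p = 0.153). Short genes as a whole lay below 0, with a median of -0.16 in the quintile of the shortest. After the trend with length and GC content was removed, 8 members of the list were called lower, Krt7, Krt8, Krt18 and Krt19 among them. That fit called 580 of all 19222 genes tested lower and 385 higher. In bulk RNA, fewer cells of a type and less RNA per cell cannot be told apart. Krt7 and Cdh1 were called in all leave-one-out fits, and the count of lowered members was 4 without DMSO replicate 1, 3 without DMSO replicate 2, 4 without SFN replicate 1 and 2 without SFN replicate 2.

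Slc30a1, which exports zinc from the cell and is induced by it, was at 40.9 and 34.7 CPM in DMSO and 9.41 and 9.12 CPM in SFN, a 4.08-fold fall (log2 fold change -2.03 ± 0.183, edgeR adjusted p = 1.59e-05). It was called in every leave-one-out fit and overlaps 1700034H15Rik on the opposite strand. The metal-binding Mt1, which shares the zinc-sensing factor MTF1 with it, was at 41.4 and 46.6 CPM in DMSO and 13.5 and 9.93 CPM in SFN (-1.91, edgeR adjusted p = 0.112), with no overlap between groups but short of the threshold. Mt2 was at 0.691 and 0.73 CPM in DMSO and 0.107 and 0.0927 CPM in SFN (-2.80, edgeR adjusted p = 0.102). Among 6 metallothionein and zinc export genes tested, 1 was called lower, Slc30a1, against 3 with only the 12 WT libraries in the fit. The fit of the 12 WT libraries called 1305 of 18959 genes lower.

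Of 17 NFAT5 and organic osmolyte genes, Slc6a9 and Hspa4l were higher, Sgk1 was lower and the median was 0.15. With 1 library left out, 0 or 1 of them was higher and 0 were lower, while with only the 12 WT libraries in the fit 6 were higher and 2 lower. Over all 18959 genes tested in the fit of the 12 WT libraries, 1570 were higher and 1305 lower. Nfat5 itself was at 341 and 253 CPM in DMSO and 291 and 371 CPM in SFN, with overlapping groups (0.15, edgeR adjusted p = 0.798). Slc5a3, the myo-inositol transporter, was at 49.4 and 46.7 CPM in DMSO and 61.8 and 82.1 CPM in SFN (0.58, edgeR adjusted p = 0.236), and Akr1b3, the aldose reductase that makes sorbitol, at 340.0 and 379.7 CPM and at 297 and 306 CPM (-0.25, edgeR adjusted p = 0.19). Slc6a6, the taurine transporter, had a log2 fold change of 0.17 (edgeR adjusted p = 0.455). None of 8 transporter genes that the study singles out as osmoprotective was called by edgeR's quasi-likelihood test or by DESeq2. Of the 8, 1 had an unadjusted p under 0.05, against 3010 of all 19509 genes tested, and 5 had a mean of at least 10 counts. The study reports their rise with SFN under hyperosmotic stress, a condition unlike the isosmotic one compared here. Slc2a1, the glucose transporter GLUT1, was at 132 and 127 CPM in DMSO and 119 and 108 CPM in SFN (-0.20, edgeR adjusted p = 0.336). Sgk1, a kinase that controls sodium channels, went from 37.2 and 38.0 CPM to 15.2 and 18.7 CPM (-1.15, edgeR adjusted p = 0.00992) and was the lowered member of 25 cell volume and sodium transport genes, with no call in any leave-one-out fit. Trpv4, an osmosensitive cation channel that is in none of the lists and was picked out after its values were seen, was at 50.6 and 47.5 CPM in DMSO and 36.4 and 34.5 CPM in SFN (-0.47, edgeR adjusted p = 0.0266), and it was called in no leave-one-out fit (edgeR adjusted p from 0.114 to 0.259).

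Several broad functions had no or a single call. Among 28 cholesterol synthesis genes, 31 autophagy genes, 38 S phase genes and 40 G2 and mitosis genes, edgeR called none, with medians of -0.02, 0.03, -0.05 and 0.10. At an unadjusted p under 0.05 there were 3, 6, 2 and 8 of them, and DESeq2 called 0, 1, 1 and 1. Over all 19509 genes tested, 3010 had such an unadjusted p and DESeq2 called 1134, so these counts are not read as a response. Among 39 proteasome subunits the lowered Psma6 (-0.36, edgeR adjusted p = 0.0494) was called, with a median of -0.20, and among 30 glucose uptake and glycolysis genes the lowered Pdk4, a kinase that inhibits pyruvate dehydrogenase (-1.39, edgeR adjusted p = 0.0286), with a median of -0.09. Neither gene was called in any leave-one-out fit. These counts depended on the other libraries in the fit: with only the 12 WT libraries, 12 G2 and mitosis genes were higher and 11 proteasome subunits were lower. That fit called 1570 of all 18959 genes higher and 1305 lower. Of 86 ribosomal protein genes (Rpl and Rps), 53 Nduf genes of respiratory complex I and 80 mitochondrial ribosomal protein genes, edgeR called none, while their medians were -0.32, -0.31 and -0.17. At an unadjusted p under 0.05 there were 10, 5 and 8 of them, and DESeq2 called 4, 1 and 0. The part of the trend with length in these medians was not tested.

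The other genes named by rule were in none of the function lists. Il1rl1, the receptor of interleukin 33, was at 4.17 and 3.58 CPM in DMSO and 0.59 and 0.871 CPM in SFN (log2 fold change -2.37, edgeR adjusted p = 1.17e-05). Adm, adrenomedullin, a vasodilator peptide, went from 7.69 and 8.84 CPM to 1.69 and 1.91 CPM (-2.20, edgeR adjusted p = 0.000416). Lcn2, lipocalin 2, a siderophore-binding protein known as a marker of tubular injury, went from 5.91 and 5.73 CPM to 1.64 and 1.48 CPM (-1.90, edgeR adjusted p = 0.000528). These 3 lowered genes were called in all leave-one-out fits. Tmem178 (-2.21), the Notch ligand Dll1 (-2.07) and the TNF family ligand Tnfsf15 (-1.93) fell but lost their call without at least 1 library. Of the raised genes, the homeobox gene Otx1 went from 3.86 and 4.18 CPM to 8.85 and 9.91 CPM (1.22, edgeR adjusted p = 0.00107) and was called in each of these fits. Napb (1.19), Zfp354c (1.18), Snx32 (1.14) and Shox2 (1.14) rose from 1.68 to 2.85 CPM in DMSO to 4.52 to 5.85 CPM in SFN and lost their call without at least 1 library. Snx32 overlaps Cfl1, Shox2 overlaps Rsrc1 and Dll1 overlaps A930024N18Rik on the opposite strand. Of the genes named by rule, 9 of the 15 raised and 10 of the 15 lowered were called in every leave-one-out fit.

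The same treatment was measured in separate libraries at 1 h or 6 h of hyperosmotic stress, with DMSO controls of their own. At 1 h 18 genes were called higher (0.0923% of the genes tested) and at 6 h 8 genes (0.041%). No gene was called lower at either time by edgeR's quasi-likelihood test. Of the 19509 genes tested, 336 at 1 h and 331 at 6 h had a lower level at an unadjusted p under 0.05. In either direction 669 and 718 genes had such a p. The spread was shared with the stressed Nrf2-/- libraries, and the effects at 1 h and 6 h were not fitted with the WT libraries alone. Of the 212 genes raised under isosmotic conditions, 16 were also called higher at 1 h and 8 at 6 h. Slc7a11 was at 5.57 and 6.54 CPM in DMSO and 29.8 and 31.1 CPM in SFN at 1 h (log2 fold change 2.33, edgeR adjusted p = 0.00129), and at 8.06 and 7.01 CPM against 14.9 and 13.4 CPM at 6 h (0.91, edgeR adjusted p = 1). Hmox1 was at 51.2 and 53 CPM against 254 and 252 CPM at 1 h (2.28, edgeR adjusted p = 0.000998), and at 102 and 106 CPM against 133 and 137 CPM at 6 h (0.37, edgeR adjusted p = 1). Srxn1 was at 55.1 and 57.5 CPM against 196 and 198 CPM at 1 h (1.81, edgeR adjusted p = 1.11e-07). The difference between the SFN effect at a time and the isosmotic effect was tested as an interaction, called for 109 genes at 1 h (0.559%) and 148 at 6 h (0.759%); the isosmotic libraries that chose the genes named by rule enter it. Of the 15 raised genes named by rule, 4 differed at 1 h and 8 at 6 h.

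Of the 343 genes lowered under isosmotic conditions, none was called lower at 1 h or 6 h. Of these 343, 217 were below 0 at 1 h and 173 at 6 h, with median log2 fold changes of -0.069 and -0.003. The share of all genes below 0 at these times is not given here. An interaction was called for 91 and 114 of the 343 genes. The isosmotic libraries that chose these genes also enter the interaction, so these counts are partly set by that choice. Arc was at 17.7 and 19.5 CPM in DMSO and 25.7 and 26.0 CPM in SFN at 1 h, and at 318 and 287 CPM against 395 and 391 CPM at 6 h. Its interaction was 2.63 at 1 h (edgeR adjusted p = 1.26e-06) and 2.54 at 6 h (1.61e-06), both on the log2 scale. Cldn4 was at 111 and 118 CPM against 117 and 117 CPM at 1 h, and at 481 and 496 CPM against 510.3 and 562 CPM at 6 h. The 1 h DMSO levels of Arc and Cldn4 lay nearer to their isosmotic SFN levels than to their isosmotic DMSO levels. For Bhlhe40 the 1 h DMSO libraries, at 57.3 and 57.9 CPM, matched the isosmotic SFN libraries, at 57.5 and 64.9 CPM, and for Slc30a1 they were at 8.98 and 6.57 CPM against 9.41 and 9.12 CPM. Cxcl2 was at 12.4 and 11.4 CPM in DMSO and 10.0 and 8.0 CPM in SFN at 1 h, and at 152 and 149.9 CPM against 169 and 167 CPM at 6 h. Its interaction missed the threshold at 1 h (3.04, edgeR adjusted p = 0.0529) and passed it at 6 h (3.6, edgeR adjusted p = 0.0134). Hspa1b, raised under isosmotic conditions, stood at 332 and 336 CPM in DMSO and 424 and 427 CPM in SFN at 1 h, and at 2974 and 2971 CPM against 2591 and 2888 CPM at 6 h.

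**Figure D5:**
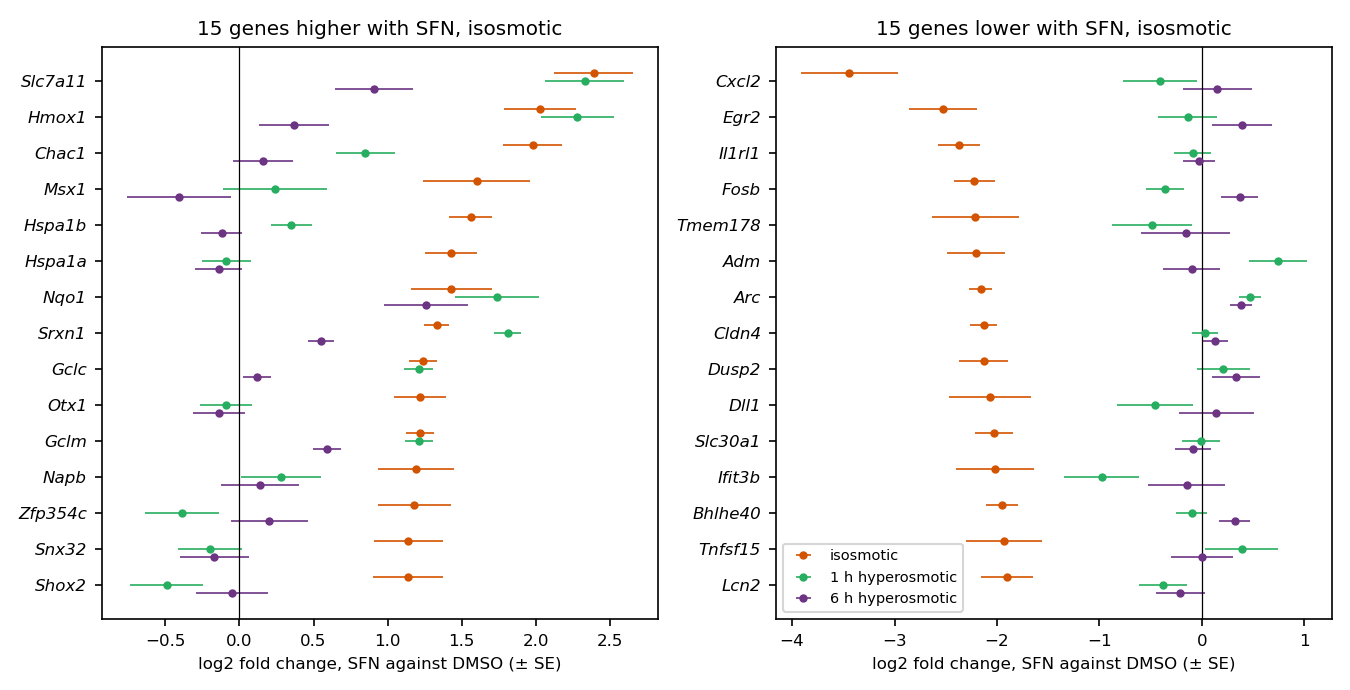
Log2 fold change of SFN against DMSO (horizontal axis, points with bars of 1 SE) for the 15 raised (left) and 15 lowered (right) genes named by rule, in isosmotic medium (orange), at 1 h (green) and at 6 h (purple) of hyperosmotic stress. Slc7a11, Hmox1, Nqo1, Srxn1, Gclc and Gclm lie between 1.21 and 2.33 at 1 h, and the lowered genes, at -1.90 or below in isosmotic medium, lie between -0.98 and 0.74 at 1 h.

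In Nrf2-/- cells treated with SFN under isosmotic conditions the antioxidant genes stood at other levels, given here beside the WT SFN levels above. These libraries are compared with the same WT SFN libraries as used above, so the values are set side by side only. Over all genes, 3584 were lower in Nrf2-/- than in WT cells with SFN (18.4% of those tested) and 3059 were higher (15.7%). Nfe2l2 was at 11.1 and 11.6 CPM in the Nrf2-/- libraries, below the 66.9 and 78.0 CPM of WT SFN. Srxn1 was at 22 and 21.3 CPM in Nrf2-/- SFN, against 212 and 199.8 CPM in WT SFN and 81.6 and 82.6 CPM in WT DMSO. Hmox1 was at 37.6 and 49.5 CPM, Gclc at 53 and 54.7 CPM and Gclm at 127 and 141 CPM, each below both WT DMSO libraries. Nqo1 and Gsta1 were at 0 CPM in both Nrf2-/- libraries. Slc7a11, at 73.4 and 67.8 CPM, and Chac1, at 30.1 and 33.1 CPM, stood above both WT SFN libraries, as did Hspa1b at 249 and 275 CPM. Genes outside the antioxidant lists also differed strongly, among them Ccl2, Cxcl5, Col4a1 and Col4a2, at 0 CPM in both Nrf2-/- libraries. Differences between the lines that were present without SFN and differences in the response to SFN cannot be told apart here.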

How the data were processed

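RNA was extracted with TRIzol and sequenced on an Illumina NovaSeq, and each of the 16 libraries has a table of whole-number counts per gene symbol. Per the methods of the authors, counts were made with Hisat2 alignment to mm10 and FeatureCounts, while the deposited processing notes name Bowtie2 with SAMtools and featureCounts; the annotation and the strand setting are not given in the sources used here. Even numbers made up 58 to 68.5% of counts from 1 to 10. Lines without a gene name held 2 counts in DMSO replicate 1 of the isosmotic condition and 3 in an isosmotic Nrf2-/- library and were left out.

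Counts were analysed in R 4.3.3 with edgeR 4.0.16 (filterByExpr, TMM, robust quasi-likelihood fit) over all 16 libraries with 1 coefficient per condition, so that all conditions shared the estimate of the spread. P-values were adjusted over the 19509 genes tested, with a threshold of 0.05. The interaction compared the SFN effect at 1 h or 6 h with the isosmotic effect. The text names the 15 genes with the largest positive and the 15 with the largest negative log2 fold change among called genes with a mean of at least 50 counts and no overlap between conditions, leaving out symbols of the form Gm plus digits or ending in Rik, and members of 38 gene lists. The comparison, its markers and the lists were chosen with earlier results of these data known, so no list is independent evidence of a direction. Exon length and overlap came from GENCODE M21 on GRCm38, and promoter windows from RefSeq.

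Data were simulated with the fitted means and the library sizes (18964 genes). The spread was that fitted over all 16 libraries, the stressed Nrf2-/- libraries included. Changed genes were drawn from those with a mean of at least 50 counts. Of these, 17.9% of genes changed 1.5-fold, 80.6% changed 2-fold and 97% changed 4-fold were called. Among unchanged genes, 7 of 18764 were called. The simulated noise was independent between genes and held no trend with exon length, so these shares do not cover low-count genes or libraries with that trend. Alternatives were DESeq2 1.42.0, RLE size factors, other filters and sets of libraries, libraries thinned to the smallest total, a replicate block and each library left out. Removal of a trend with length and GC content was added after seeing the data. Values of some genes are not reported here.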

Additional observations from a re-analysis of the deposited data

Results flagged for a closer look

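The SFN effect under isosmotic conditions differed from the SFN effect in hyperosmotic medium for 13 genes named by rule at 1 h and for 19 at 6 h (interaction in edgeR's quasi-likelihood fit, adjusted p under 0.05 over all genes tested). Each value below is the log2 effect under stress minus the isosmotic one. The isosmotic libraries that chose these genes also enter the difference, and the calls of genes named for a large isosmotic change are therefore not independent of that choice.

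Among the raised genes the effect was smaller at 1 h for the chaperone copies Hspa1b (-1.21) and Hspa1a (-1.52) and for the homeobox genes Otx1 (-1.31) and Shox2 (-1.63). At 6 h it was smaller for Chac1 (-1.82), Hspa1b (-1.68), Hmox1 (-1.66), Hspa1a (-1.57), Otx1 (-1.37), Gclc (-1.12), Srxn1 (-0.78) and Gclm (-0.63). Slc7a11 and Nqo1 were not called in either difference.

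Among the lowered genes the fall was smaller or absent at 1 h for Adm (2.94), Arc (2.63), Egr2 (2.39), Dusp2 (2.34), Il1rl1 (2.28), Cldn4 (2.16), Slc30a1 (2.02), Fosb (1.86) and Bhlhe40 (1.85). At 6 h the same held for Cxcl2 (3.60), Egr2 (2.91), Fosb (2.59), Arc (2.54), Dusp2 (2.46), Il1rl1 (2.34), Cldn4 (2.27), Bhlhe40 (2.27), Adm (2.10), Slc30a1 (1.93) and Lcn2 (1.69).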

How the results depend on the processing

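The 212 raised and 343 lowered genes became 476 and 627 without a filter on low counts, 507 and 590 with only the 4 libraries compared, 1570 and 1305 with only the 12 WT libraries, 576 and 558 with DESeq2, 385 and 580 after removal of the trend with length and GC content, and 56 and 128 at a change of at least 2-fold. With 1 isosmotic library left out they ranged from 39 to 114 and from 127 to 188, lowest without DMSO replicate 2 and without SFN replicate 2. RLE size factors (209 and 299), a mean of at least 20 counts (249 and 378) and thinned libraries (186 and 328) moved both counts by less than 1.5 times. No called gene changed direction in any of these settings. The raised share of the calls, 38.2%, was 50.8% with DESeq2, 54.6% with the WT libraries and 20.3% without DMSO replicate 2. Of 181 genes named in the text, 52 to 80 lost their call when a library was left out. Uncalled Nfat5 (0.15) had log2 fold changes from -0.044 (without DMSO replicate 2) to 0.39, with -0.031 without SFN replicate 2 and -0.023 after trend removal; uncalled Nfe2l2 (-0.07) ranged from -0.19 to 0.036 (without SFN replicate 1). The cause was not tested.

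The titles number the replicates 1 and 2 in each condition, but the headers of the isosmotic SFN tables carry 2 and 3, and no source says that a number marks a shared culture or day. Libraries with the same title number had deviations from their condition means with a correlation of -0.0794. A replicate block gave 336 raised and 467 lowered genes within the 4 libraries, and 153 and 287 over all 16. At this depth and with 2 libraries per condition, changes near 1.5-fold were mostly below what the test could call.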
